A study of Mus musculus with 12 samples.

Results

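The RNA of sorted cells was read for 9 genes that mark macrophages: Emr1 (now Adgre1), Csf1r, C1qb, C1qc, Apoe, Lyz1, Pf4, Fn1 and Cd68. Their rows were taken by gene symbol from a table of 28987 genes in 12 libraries, and all 9 passed the filter of 1 TPM or more (TPM, a gene's length-corrected share of all transcripts, scaled to a fixed total) in 3 libraries or more, as did 13456 genes in all. FVB mice, wild type (WT) or MRP8-Bcl2, received 2 mL of thioglycollate into the peritoneum, an irritant that draws in neutrophils, and cells of the bone marrow (BM) and of the peritoneum (PT) of each mouse were sorted by FACS. This gave 4 groups of 3 libraries, written as tissue and genotype: BM WT and PT WT, and BM Bcl2 and PT Bcl2. MRP8-Bcl2 mice carry human Bcl-2 under the regulatory regions of human MRP8, a gene of myeloid cells, so the transgene is not limited to neutrophils. All mice had thioglycollate, so the marrow is not that of resting animals; the labels give collection at 6 h and the study's methods give other times, and age is not given in the sources used here.

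Macrophages are long-lived phagocytes of tissues. They need the receptor for colony-stimulating factor 1, clear dying cells and debris with the help of complement C1q, and carry large lysosomes. Neutrophils are short-lived granulocytes that are made in the marrow and enter an inflamed peritoneum within hours, where resident macrophages and incoming monocytes are also found. The study defined neutrophils by flow cytometry as cells with CD11b and much GR1 but without F4/80, and macrophages as cells with CD11b and F4/80. F4/80 is the protein that Emr1 encodes, so the sort was meant to leave out cells that show it. In pooled cells, a few macrophages and a low level of a gene in many neutrophils give the same TPM and cannot be told apart.

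The libraries are named here by the number in their deposited column names: 4 to 6 are BM WT, 10 to 12 PT WT, 1 to 3 BM Bcl2 and 7 to 9 PT Bcl2. The numbers do not name mice. A level of 0 means that the gene is listed at 0 in the table. The label of the source cells reads macrophages, whereas the series' own design text and the study name neutrophils. The neutrophil genes S100a8 and S100a9 together held 10499 to 324978 TPM, and the 9 macrophage genes together held 207 to 1339 TPM. The Bcl2 row stood at 166 to 333 TPM in BM Bcl2, at 82.8 and 58.6 TPM in libraries 7 and 8 of PT Bcl2 and at 0.219 to 2.37 TPM in WT. In library 9, labelled PT Bcl2, it was 0.695 TPM, within the WT range. Leaving out library 9, the Bcl2 comparison of PT with BM called 314 genes higher and 2178 lower of 13309 tested, against 311 and 2567 of 13456 with it. Genes with a run of at least 31 equal bases in a transcript, 108 in all, took 8.93% to 65.6% of the TPM of a library.

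Of the 9 genes, C1qb and C1qc alone are neighbours. In GRCm38 with the GENCODE M21 annotation, Emr1 is at chr17:57358691-57483527 on the plus strand. C1qb is at chr4:136880129-136886187 and C1qc next to it at chr4:136889804-136893065, both on the minus strand. Apoe is at chr7:19696109-19699188 on the minus strand, Pf4 at chr5:90772435-90773383 on the plus strand, Fn1 at chr1:71585520-71653200 on the minus strand and Cd68 at chr11:69664213-69666153 on the minus strand. Lyz1 is at chr10:117287797-117292868 on the minus strand, beside its near copy Lyz2. The TPM values count reads over the exons of a gene.

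The lysozyme genes are shown first because their values depend on which copy a read is given to. Their coding sequences, 444 bases each, differ at 22 bases, and 34.2% of the stretches of 31 bases in Lyz1 transcripts occur unchanged in Lyz2 transcripts. The 45 bases below, coding bases 82 to 126 in exon 1, are one of the places where they differ most, and the 7 bases that differ are in capitals. The Lyz1 stretch is at chr10:117292713-117292757 and the Lyz2 stretch at chr10:117282117-117282161, both on the minus strand of GRCm38 and written 5′ to 3′.
Lyz1: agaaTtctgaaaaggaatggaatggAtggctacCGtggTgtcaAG
Lyz2: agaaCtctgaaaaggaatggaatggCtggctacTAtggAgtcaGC
A read that lies over these bases can be given to 1 copy only, while a read from the shared stretches cannot.

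C1qb and C1qc are shown next because they are neighbours whose products join in 1 protein complex and because they had the highest correlation of any pair of the 9 genes. RefSeq promoters (GRCm38.p6, 250 bases before to 50 after the start) were found for 6 of the 9 genes, and these are the C1qb one, chr4:136886151-136886450, and the C1qc one, chr4:136892865-136893164, both on the minus strand. Capitals mark the match to GAGGAA, the core bound by the myeloid factor PU.1, on either strand.
C1qb: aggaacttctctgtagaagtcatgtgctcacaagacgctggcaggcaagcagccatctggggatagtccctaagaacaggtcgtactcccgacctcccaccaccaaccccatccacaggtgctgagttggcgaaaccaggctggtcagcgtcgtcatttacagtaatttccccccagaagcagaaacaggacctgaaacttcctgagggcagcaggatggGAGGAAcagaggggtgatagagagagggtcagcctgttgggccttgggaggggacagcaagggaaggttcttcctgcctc
C1qc: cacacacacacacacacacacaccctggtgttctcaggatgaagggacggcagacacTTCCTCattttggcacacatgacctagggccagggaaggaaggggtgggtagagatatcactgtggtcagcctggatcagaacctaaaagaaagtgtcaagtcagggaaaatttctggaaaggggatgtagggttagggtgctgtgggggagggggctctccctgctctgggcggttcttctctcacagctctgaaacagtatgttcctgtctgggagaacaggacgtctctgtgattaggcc
Each promoter held 1 match to GAGGAA, which 28.3% of 32851 promoters of this length held. TATAAA matched in neither (13.6% of promoters), and TGCTGA, the core of MAF recognition elements, matched once in C1qb only (19.5% of promoters). Matches were counted on both strands and the 3 motifs do not overlap each other in these promoters. A match is a description of letters and not a binding site.

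Cd68 and Fn1 were the highest of the 9 genes per length in these cells and the C1q genes the lowest. The median over the 12 libraries was 158 TPM for Cd68, 79.7 TPM for Fn1, 28.0 TPM for Csf1r, 11.6 TPM for both Apoe and Pf4, 5.17 TPM for Emr1, 4.59 TPM for Lyz1, 1.46 TPM for C1qc and 1.18 TPM for C1qb. The ranges of neighbours in this order overlapped. The libraries with the highest value differed from gene to gene. Library 7 of PT Bcl2 was highest for Csf1r, C1qb, Pf4 and Cd68, library 2 of BM Bcl2 for Emr1 and Apoe, library 3 of BM Bcl2 for Fn1, library 4 of BM WT for C1qc and library 12 of PT WT for Lyz1.

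**Figure D1:**
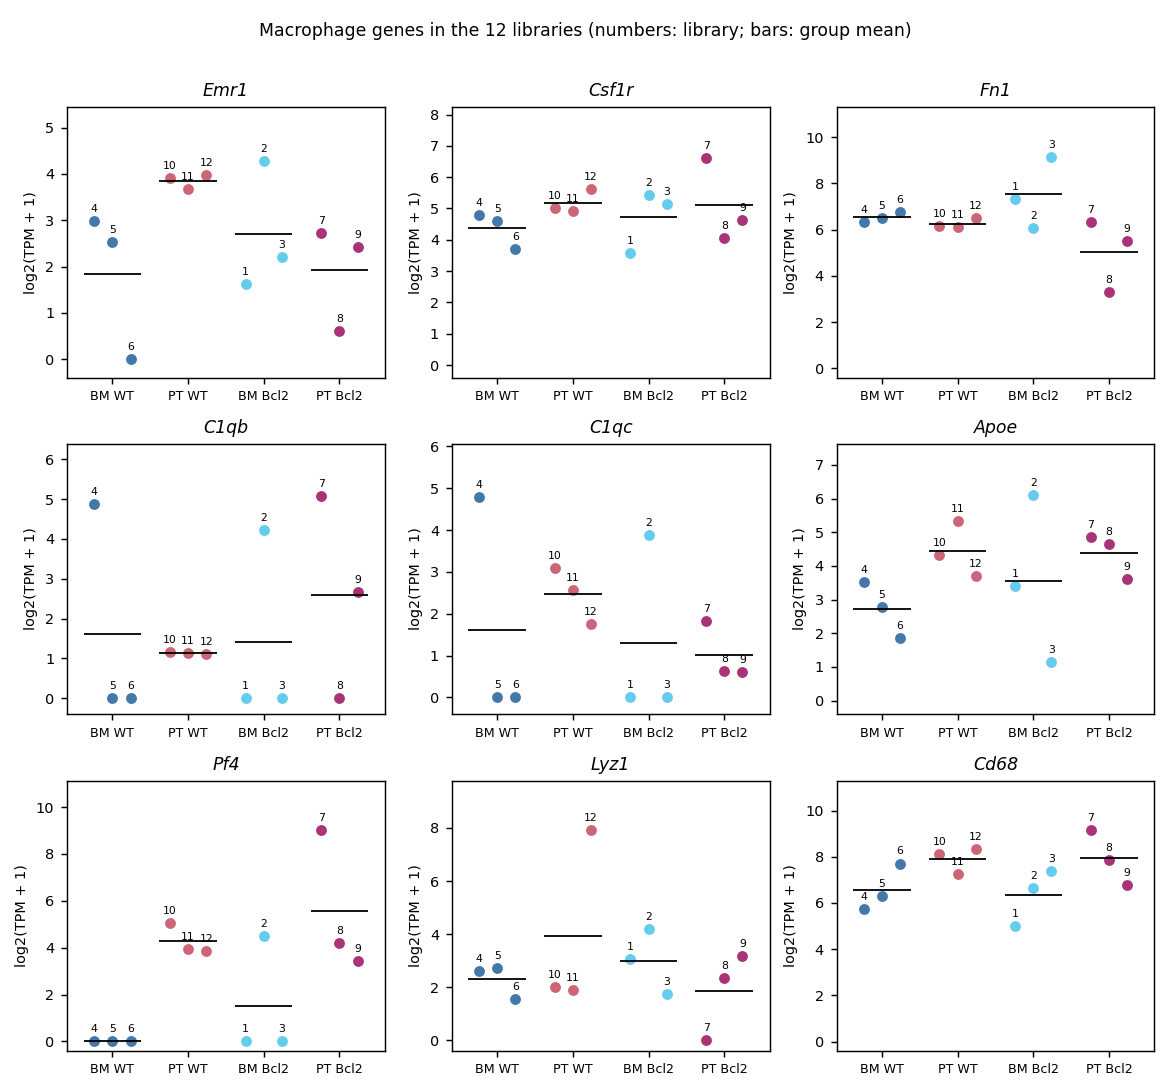
Level of each of the 9 macrophage genes in the 12 libraries, as log2(TPM + 1) on the y axis and group on the x axis; each point is a library with its number and bars are group means. The 3 PT WT libraries lie above the 3 BM WT libraries for Emr1, Csf1r, Apoe and Pf4, and single libraries (7 for Pf4, 12 for Lyz1, 3 for Fn1, 2 and 4 for the C1q genes) lie far above the rest of their group.

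Emr1 encodes F4/80, an adhesion receptor of tissue macrophages. It was 6.94, 4.77 and 0 TPM in libraries 4 to 6 of BM WT and 14.0, 11.7 and 14.7 TPM in libraries 10 to 12 of PT WT. It was 2.08, 18.5 and 3.61 TPM in libraries 1 to 3 of BM Bcl2 and 5.57, 0.532 and 4.38 TPM in libraries 7 to 9 of PT Bcl2. The 3 PT WT libraries were close to each other and above all BM WT and all PT Bcl2 libraries, and library 2 of BM Bcl2 was the highest of all. The fit gave PT WT above BM WT by 2.01 (SE 0.95) on the log2(TPM + 1) scale, with an adjusted p of 0.306 by limma. In Bcl2 the difference was -0.79 (SE 0.95, adjusted p 0.574).

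Csf1r is the receptor through which colony-stimulating factor 1 keeps macrophages alive, and its transcript is also made by some other myeloid cells. The gene is at chr18:61100598-61132149 on the plus strand of GRCm38. It was above 0 in all 12 libraries. It was 26.9, 23.4 and 12.1 TPM in BM WT and 31.5, 29.1 and 48.2 TPM in PT WT, which gives 20.8 ± 7.77 and 36.3 ± 10.4 TPM (mean ± SD, n = 3 each). It was 11.03, 42.1 and 34.2 TPM in BM Bcl2 and 96.7, 15.7 and 23.7 TPM in PT Bcl2. The WT groups did not overlap, the Bcl2 groups did, and library 7 alone lay above all other libraries. The difference between PT and BM was 0.81 (SE 0.73, adjusted p 0.629) in WT and 0.38 (SE 0.73, adjusted p 0.730) in Bcl2 on the log2(TPM + 1) scale by limma. Per 100 TPM of Csf1r, the PT WT libraries held 30.6 to 44.4 TPM of Emr1 and the PT Bcl2 libraries 3.38 to 18.5 TPM. The marrow libraries spanned both ranges, at 0 to 25.8 TPM in BM WT and 10.6 to 44.0 TPM in BM Bcl2.

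C1qb and C1qc encode chains of complement C1q, which binds dying cells and immune complexes. C1qb was 28.4, 0 and 0 TPM in BM WT, 17.7 TPM in library 2 and 0 in libraries 1 and 3 of BM Bcl2, and 1.22, 1.21 and 1.16 TPM in PT WT. In PT Bcl2 it was 32.7, 0 and 5.41 TPM. C1qc was 26.9, 0 and 0 TPM in BM WT and 13.7 TPM in library 2 and 0 in libraries 1 and 3 of BM Bcl2. In PT it was 7.51, 4.96 and 2.37 TPM in WT and 2.53, 0.540 and 0.525 TPM in Bcl2. In the marrow, both genes were thus above 0 in 1 library of each genotype and listed at 0 in the other 4.

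The levels of C1qb and C1qc were in different proportions in the groups. C1qb per C1qc was 1.06 in library 4 and 1.29 in library 2, the marrow libraries that held both. It was 0.163, 0.244 and 0.488 in the 3 PT WT libraries, and 12.9 and 10.3 in libraries 7 and 9 of PT Bcl2. C1qa, the remaining chain of the complex, reached 2.45 TPM in library 4 and 1.11 TPM in library 2 and at most 0.429 TPM elsewhere. These levels rest on few reads. Low TPM values fell in steps that give the worth of 1 read, from 0.309 to 1.45 TPM for C1qb and from 0.271 to 1.27 TPM for C1qc in the 12 libraries, so that the C1qc values of libraries 8 and 9 amounted to about 1 read each and the C1qb values of PT WT to about 3 to 4 reads each. In library 4, they rested on about 36.8 and 39.7 reads. By limma, PT against BM was -0.49 (SE 1.47) for C1qb and 0.87 (SE 1.24) for C1qc in WT, and 1.18 (SE 1.47) and -0.28 (SE 1.24) in Bcl2 on the log2(TPM + 1) scale. No difference between groups passed the test for either gene.

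**Figure D2:**
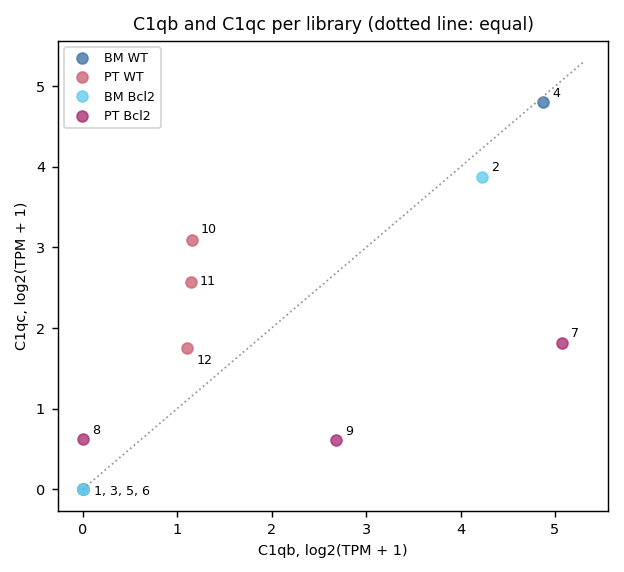
C1qb (x axis) against C1qc (y axis) in each library, both as log2(TPM + 1), coloured by group with the library number beside the point; the dotted line marks equal levels. Libraries 2 and 4 lie near the line, the PT WT libraries above it and libraries 7 and 9 of PT Bcl2 below it, and libraries 1, 3, 5 and 6 are at 0 for both.

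Apoe encodes apolipoprotein E, a lipid carrier that macrophages secrete. It was 10.5, 5.83 and 2.64 TPM in BM WT and 18.9, 39.5 and 11.9 TPM in PT WT, or 6.33 ± 3.97 and 23.4 ± 14.3 TPM (mean ± SD, n = 3 each). It was 9.67, 67.8 and 1.23 TPM in BM Bcl2 and 28.1, 24.2 and 11.2 TPM in PT Bcl2. The WT groups did not overlap, and in Bcl2 the marrow libraries held both the lowest and the highest value of all 12. PT was above BM by 1.73 (SE 1.00, adjusted p 0.415) in WT and by 0.82 (SE 1.00, adjusted p 0.581) in Bcl2 on the log2(TPM + 1) scale by limma.

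Pf4 encodes platelet factor 4 (CXCL4), a chemokine of platelet granules that some macrophages also make. It was listed at 0 in the 3 BM WT libraries and was 31.8, 14.5 and 13.5 TPM in PT WT. In BM Bcl2 it was 0, 21.9 and 0 TPM in libraries 1 to 3, and in PT Bcl2 it was 521, 17.3 and 9.69 TPM in libraries 7 to 9. It was thus above 0 in all 6 PT libraries and in 1 of 6 BM libraries. A level of 1 read of Pf4 was worth 0.772 to 3.62 TPM, so all PT values rested on about 6.5 reads or more. In Bcl2, PT rose above BM by 4.04 on the log2(TPM + 1) scale (SE 1.35, adjusted p 0.0456 by limma), although library 2 of BM Bcl2 overlapped the PT values. Without library 7 the difference was 2.30 (SE 1.17, adjusted p 0.182), and without library 9 it was 5.11 (SE 1.43, adjusted p 0.0268). The call was lost without any 1 of 10 of the 12 libraries, at adjusted p 0.0504 to 0.182. In WT, no fold is given because BM is listed at 0, and the adjusted p was 0.110.

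The 10 listed platelet and megakaryocyte genes did not stand highest where Pf4 did. Selp did: this gene encodes P-selectin and was read on the list of peritoneal macrophages. It was 805 TPM in library 7 and at most 173 TPM elsewhere. In library 7, with 521 TPM of Pf4, Ppbp and Gp9 were listed at 0 and Itga2b was 4.91 TPM. These zeros tell little, since Ppbp was above 0 in only 4 of the 12 libraries and Gp9 in only 1. That 1 was library 2 of BM Bcl2, with 1.585 TPM of Gp9 and 21.9 TPM of Pf4. The part of platelets in the Pf4 level was not tested. In library 12, with 13.5 TPM of Pf4, Ppbp was 62.2 TPM and Itga2b 80.5 TPM, the highest values of the 12 libraries for both. Over the list of 10 platelet and megakaryocyte genes the WT sum was 9.10 to 9.46 TPM for the marrow and 11.3 to 180 TPM for the peritoneum, and the Bcl2 sum 6.88 to 25.7 TPM and 3.08 to 9.77 TPM. Gp9 and Selp were named after their values were seen.

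Fn1 encodes fibronectin, a matrix protein made by monocytes, some macrophages and many stromal cells. It was 80.5, 89.8 and 108 TPM in BM WT and 70.4, 68.4 and 88.6 TPM in PT WT, or 92.6 ± 13.7 and 75.8 ± 11.2 TPM (mean ± SD, n = 3 each). It was 158, 67.1 and 572 TPM in BM Bcl2 and 78.9, 8.75 and 44.4 TPM in PT Bcl2. In WT the groups overlapped and the difference was -0.29 (SE 0.79, adjusted p 0.898) on the log2(TPM + 1) scale by limma. In Bcl2, PT fell below BM by 2.49 on the log2(TPM + 1) scale (SE 0.79, adjusted p 0.0378 by limma), with library 7 above library 2 so that the groups overlapped here too. Without library 3 the difference was -1.67 (adjusted p 0.180), without library 8 -1.61 (adjusted p 0.149), without library 1 -2.59 (adjusted p 0.0561) and without library 9 -2.72 (adjusted p 0.0498). With each library centred on its median it was -0.90 (adjusted p 0.469).

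Library 3, where Fn1 was highest, was also highest for 6 of the 7 called monocyte genes. Library 3 belongs to BM Bcl2, and its part in the calls of these monocyte genes lower in PT of Bcl2 was not tested. Ccr2, the chemokine receptor of inflammatory monocytes, was 213 TPM there and at most 47.2 TPM elsewhere. F13a1, a clotting factor subunit of monocytes, was 498 TPM against at most 133 TPM, and Ms4a6c was 277 TPM against at most 69.3 TPM. The list of 12 monocyte genes summed to 2810 TPM in library 3 and to 798 and 899 TPM in the other 2 BM Bcl2 libraries. Elsewhere it summed to 666 to 1351 TPM (BM WT), 371 to 406 TPM (PT WT) and 172 to 318 TPM (PT Bcl2). Its 12 genes were all tested, and in Bcl2 6 were lower and 1, Nr4a1, higher in PT, where 19.1% of all tested genes were lower and 2.31% higher. With centred libraries 1 of the 12 was lower, and after quantile normalization or without the homopolymer genes 2 were, with 1 higher each time. The part of these genes in the Fn1 result was not tested.

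Lyz1 is the lysozyme of Paneth cells and some macrophages, whereas Lyz2 is the lysozyme of myeloid cells in general. Lyz1 was 5.08, 5.55 and 1.93 TPM in BM WT and 3.05, 2.68 and 239 TPM in PT WT. It was 7.30, 17.3 and 2.37 TPM in BM Bcl2 and 0, 4.10 and 7.93 TPM in PT Bcl2. Library 12 was 13.9 times the next highest library. Lyz2 was 8952 to 14170 TPM in the 6 BM libraries and 416 to 2397 TPM in the 6 PT libraries. Lyz1 was 9.98% of Lyz2 in library 12 and at most 1.13% in the other 11 libraries. How reads were given to Lyz1 or to its near copy shown above was not tested. PT WT was above BM WT by 1.65 (SE 1.35, adjusted p 0.594) on the log2(TPM + 1) scale by limma, and without library 12 the value was -0.34. In Bcl2 the difference was -1.16 (SE 1.35, adjusted p 0.559).

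Library 12 also held the highest level of some genes of other cells. Retnla, a secreted protein of alternatively activated macrophages and eosinophils, was 330 TPM there and at most 25.5 TPM elsewhere. Itgax, the CD11c gene of dendritic cells and some macrophages, was 313 TPM against at most 61.9 TPM. Cpa3, a mast cell protease, was 481 TPM against at most 27.4 TPM; it was chosen after its values were seen. The mast cell list of 7 genes summed to 680 TPM in library 12, and to 32.2 and 69.7 TPM in the other PT WT libraries. Other genes listed with Retnla and Itgax went the other way. The peritoneal macrophage genes Saa3, Cxcl13 and Prg4 were 36.8, 3.15 and 2.59 TPM in library 12. They were at least 227, 78.8 and 22.8 TPM in the other PT libraries. Siglech, from the dendritic cell list and chosen after its values were seen, was 0.537 TPM in library 12, the lowest of the 12 libraries. The part of such other cells in the Lyz1 level was not tested.

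Cd68 encodes a lysosomal membrane protein of macrophages that other myeloid cells carry too. It was 51.6, 77.7 and 208 TPM in BM WT and 278, 150 and 320 TPM in PT WT, or 112 ± 83.7 and 249 ± 88.2 TPM (mean ± SD, n = 3 each). It was 30.7, 98.5 and 167 TPM in BM Bcl2 and 574, 230 and 107 TPM in PT Bcl2, or 98.6 ± 68.0 and 303 ± 242 TPM. The groups overlapped in both genotypes. PT was above BM by 1.32 (SE 0.74, adjusted p 0.395) in WT and by 1.59 (SE 0.74, adjusted p 0.134) in Bcl2 on the log2(TPM + 1) scale by limma. With each library centred on its median the Bcl2 difference was 3.18 (adjusted p 0.0243). Cd68 was 14.0% of the summed TPM of the 9 genes in library 1 and 76.3% in library 8.

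The make-up of the summed level differed between libraries. Fn1 was 72.3% of it in library 1 and 73.3% in library 3, and 2.91% in library 8. Pf4 was 38.9% in library 7 and at most 6.98% elsewhere, and Lyz1 was 32.4% in library 12 and at most 4.74% elsewhere. In WT the sum was 207 to 332 TPM for the marrow and 322 to 739 TPM for the peritoneum, and in Bcl2 219 to 780 TPM for the marrow and 214 to 1339 TPM for the peritoneum. As a share of S100a8 and S100a9 TPM the WT libraries ran from 0.0809% to 0.127% (BM) and from 1.54% to 3.07% (PT), and the Bcl2 libraries from 0.107% to 1.04% (BM) and from 1.02% to 2.35% (PT). S100a8 and S100a9 were themselves lower in PT, at -3.62 and -3.73 in WT and at -2.37 and -2.24 in Bcl2 on the log2(TPM + 1) scale (adjusted p 0.0101, 0.00512, 0.0224 and 0.0182 by limma), so these shares move with the neutrophil genes as well as with the macrophage genes. In Bcl2 neither was called with centred libraries (-0.78 and -0.65, adjusted p 0.527 and 0.591), after quantile normalization (-0.60 and -1.24, adjusted p 0.540 and 0.314) or without library 9 (-1.82 and -1.79, adjusted p 0.0880 and 0.0732). In WT neither was called after quantile normalization (-1.65 and -2.88, adjusted p 0.158 and 0.0569).

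**Figure D3:**
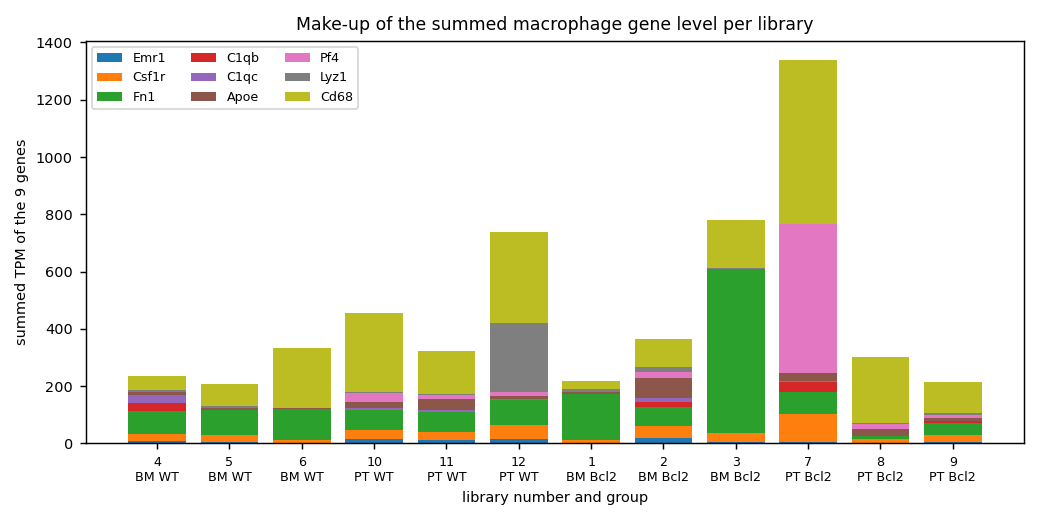
Summed TPM of the 9 macrophage genes (y axis) in each library (x axis, library number and group), stacked by gene. The sum runs from 207 TPM in library 5 to 1339 TPM in library 7, Fn1 is most of it in libraries 1 and 3, and Pf4 in library 7 and Lyz1 in library 12 take larger shares than in any other library.

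Against the marrow of the same genotype, 0 of the 9 genes passed the test in WT and 2 in Bcl2. A gene was called at an adjusted p under 0.05, over all tested genes, and at least 2-fold. In WT the background was 2.81% of tested genes called, 1.59% higher and 1.22% lower in PT, and with p not adjusted, Pf4 alone passed at 0.05, against 16.5% of all. In Bcl2, Pf4 rose and Fn1 fell while 21.4% of tested genes were called, 2.31% higher and 19.1% lower. At an unadjusted p, 3 of the 9, with Cd68, passed against 37.2% of all. Without library 9, Pf4 and Fn1 were again the 2 called. The other differences in Bcl2 were then -1.04 for Emr1, 0.62 for Csf1r, 1.13 for C1qb, -0.07 for C1qc, 1.199 for Apoe, -1.82 for Lyz1 and 2.17 for Cd68 on the log2(TPM + 1) scale. The median difference of the 9 genes was 1.32 in WT beside 0.22 over all tested genes, and 0.38 in Bcl2 beside -1.02 over all tested genes, on the log2(TPM + 1) scale.

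The Bcl2 comparison depends on the scaling between libraries. Calls higher and lower in PT were 311 and 2567 on the TPM as deposited, 1636 and 467 after centring the libraries on their medians, 679 and 780 after quantile normalization, and 565 and 1077 without the homopolymer genes. The median of all tested genes moved from -1.02 to 0.57, 0.00 and -0.53 on the log2(TPM + 1) scale. Pf4 was called under all 4 scalings, at 4.04, 5.63, 4.42 and 4.95, Fn1 only as deposited, and Cd68 with centred libraries and without the homopolymer genes.

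Of the 9 genes, Emr1, Csf1r, Apoe and Pf4 were higher in all 3 PT WT libraries than in any BM WT library, and none was lower in all 3. Over all tested genes this held for 14.9% higher and 7.97% lower. In Bcl2, 0 of the 9 genes were apart in either direction, against 5.18% higher and 32.6% lower over all tested genes. Fn1, Lyz1, Cd68, C1qb and C1qc overlapped between PT and BM in both genotypes.

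**Figure D4:**
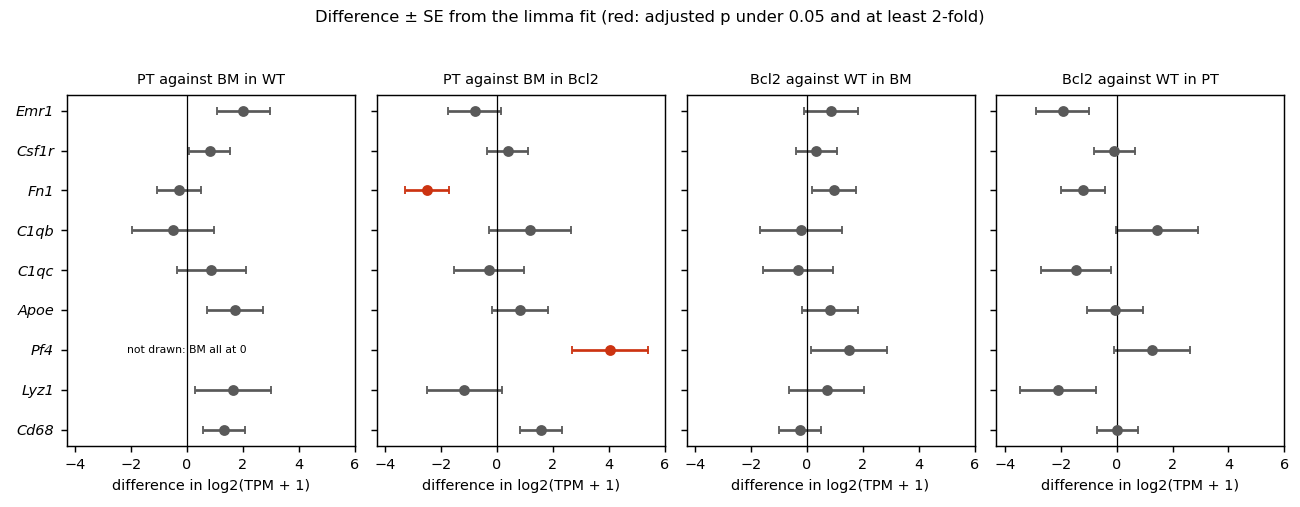
Difference in log2(TPM + 1) between groups (x axis) for each macrophage gene (y axis) in the 4 comparisons, as points with SE bars from the limma fit; red marks genes called. Pf4 at 4.04 and Fn1 at -2.49 in PT against BM of Bcl2 are the only red points, and Pf4 in WT is not drawn since BM is listed at 0.

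The change from marrow to peritoneum was not shown to differ between the genotypes for any of the 9 genes. Called by the interaction were 0 of the 9, against 0.0149% of tested genes, and 0 at an unadjusted p under 0.05, against 16.9%. Emr1 had an interaction of -2.80 (SE 1.34, adjusted p 0.303) and Fn1 one of -2.20 (SE 1.12, adjusted p 0.325) on the log2(TPM + 1) scale by limma. Over all tested genes the median interaction was -1.18, and with centred libraries the Emr1 value was -0.99. Without library 9, 0 of the 9 were called and the values were -3.05 for Emr1 and -2.43 for Fn1.

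Between genotypes, 0 of the 9 genes were called in the marrow and 0 in the peritoneum by limma. The background was 0.0223% in BM and 0.0297% in PT. At an unadjusted p under 0.05, 0 of the 9 passed in either tissue, against 7.36% and 12.7% of tested genes. In PT, Emr1 was lower in Bcl2 by 1.93 (SE 0.95, adjusted p 0.414) on the log2(TPM + 1) scale, and all 3 PT Bcl2 libraries lay below all 3 PT WT libraries. Without library 9 the value was -2.18. Emr1 was the 1 of 9 genes apart in PT, where 18.8% of tested genes were lower and 0.587% higher in all Bcl2 libraries. In BM, 0 of the 9 were apart, against 10% higher and 1.16% lower in Bcl2. Of the other 8 genes, the difference between genotypes in PT ran from -2.10 (SE 1.35) for Lyz1 to 1.45 (SE 1.47) for C1qb.

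Across the 12 libraries the 9 genes did not follow 1 pattern. Of their 36 pairs, 4 had a Pearson r of log2(TPM + 1) above 0.7 and 10 had one below 0. The highest were C1qb with C1qc (0.72), Apoe with Pf4 (0.72), Csf1r with Pf4 (0.71) and Pf4 with Cd68 (0.71), and the lowest was Apoe with Fn1 (-0.60). The libraries share tissue, genotype and their share of homopolymer reads, and a value at 0 in several libraries weighs heavily in r, so these are descriptions.

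The genes outside the 9 with the most similar pattern were, in part, led by the same single library. For Pf4 they were Dtx4 (r 0.95) and Col8a1 (0.93), both highest in library 7. For Lyz1 they were Fbxw13 (0.92) and Efcab5 (0.90), both highest in library 12, and for Fn1 Tmsb10 (0.91) was highest in library 3. For Csf1r they were Atf1 and Socs5 (both 0.91), for C1qb Echdc2 (0.92) and Gm17058 (0.91), and for Cd68 Gm9931 (0.89) and Slc15a1 (0.87), all highest in library 7. For C1qc they were Art2a-ps (0.94) and Gm15460 (0.85), both highest in library 4. For Emr1 they were Map3k2 (0.91) and Zmat1 (0.90), and for Apoe Cacnb2 (0.88) and Il20rb (0.87).

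Other macrophage genes were read from lists to see whether they moved with the 9. Their calls stand against 1.59% of all tested genes higher and 1.22% lower in WT, and 2.31% higher and 19.1% lower in Bcl2. Of 20 general macrophage genes, 19 were tested. In WT 0 were higher and 1, Lyz2, lower in PT; in Bcl2 1, the lipopolysaccharide co-receptor Cd14, was higher and Lyz2 lower. In Bcl2 with centred libraries, 6 were higher and 1 lower. Their summed level was 9259 to 14420 TPM in BM and 1158 to 4894 TPM in PT. Lyz2 made most of the BM sum. The sum of the other 19 genes went the other way, with 254 to 631 TPM in BM and 742 to 2496 TPM in PT. Most of that PT sum was Cd14, at 462 to 2245 TPM, against 31.3 to 256 TPM in BM. It is thus a reading of Cd14 more than of the list. The median difference of the list in WT was 0.38 and in Bcl2 -1.02, beside 0.22 and -1.02 over all tested genes.

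Genes of peritoneal macrophages stood higher in PT as a sum, and a few genes made most of this difference. Of 20, 17 were tested, and 3 were higher in WT: Cxcl13, a B cell chemokine, Saa3, an acute phase protein, and Retnla. Different PT WT libraries led these genes. In libraries 10 to 12, Cxcl13 was 179, 219 and 3.15 TPM and Saa3 361, 622 and 36.8 TPM. Retnla was 25.5, 23.9 and 330 TPM in the same libraries. In Bcl2, Cxcl13, Saa3 and the lubricin gene Prg4 were higher and Ltbp1 and F5 lower. Ltbp1 and F5 lost their calls under the other scalings, where 0 were lower and 6 (centred), 5 (quantile) or 4 (without homopolymer genes) were higher. Without library 9, 4 were higher and 1 lower. The sum was 132 to 196 TPM in BM WT and 642 to 1249 TPM in PT WT, and 128 to 225 TPM in BM Bcl2 and 455 to 1939 TPM in PT Bcl2. Without Selp, Saa3, Prg4 and Cxcl13 the other 16 genes summed to 88.6 to 108 TPM in BM WT. They summed to 107.6, 149 and 540 TPM in libraries 10 to 12 of PT WT, so the WT ranges overlapped. Retnla alone was 330 TPM in library 12. In Bcl2 the sum of these 16 was lower in PT, with 81.1 to 109 TPM in BM and 12.2 to 68.3 TPM in PT. F5 and Ltbp1 made much of that BM sum. F5 was 22.1 to 50.9 TPM in BM Bcl2 and 4.53 to 8.16 TPM in PT Bcl2. Ltbp1 was 27.0 to 33.4 TPM in BM Bcl2 and 0 to 5.04 TPM in PT Bcl2. Gata6, the transcription factor that defines resident peritoneal macrophages, was listed at 0 in 10 of 12 libraries and was 0.603 and 0.114 TPM in libraries 10 and 11. Timd4, a receptor of resident macrophages, was 7.40, 11.5 and 2.51 TPM in PT WT, 0, 0 and 6.87 TPM in PT Bcl2, 5.27, 0 and 0 TPM in BM WT and 0.347, 1.78 and 0 TPM in BM Bcl2. Selp, which encodes P-selectin, Timd4 and Gata6 were named after their values were seen. The part of these cells in the levels of Emr1, Csf1r, Apoe and Pf4 was not tested.

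Some macrophage genes, from the lists of marrow, general and peritoneal macrophages, were high in the same 2 marrow libraries as C1qb and C1qc. Vcam1, an adhesion molecule of macrophages that surround red cell precursors, was 79.0 TPM in library 2 and 74.4 TPM in library 4 and at most 5.73 TPM in the other 10. Axl, a receptor for dying cells, was 17.1 and 16.8 TPM there and at most 11.3 TPM elsewhere, and Fcna, a ficolin, was 14.9 and 17.0 TPM there and at most 9.90 TPM elsewhere. These 3 genes were chosen after their values were seen. Other marrow macrophage genes did not follow them: the iron exporter Slc40a1 was 53.6 and 53.5 TPM in libraries 2 and 4 and 66.4 TPM in both libraries 5 and 6, and Il18bp, also chosen after its values were seen, was 21.8 and 21.1 TPM there and 57.0 TPM in library 6. Over the list of 10 marrow macrophage genes, 0 were called in WT and 1, Slc40a1, was higher in PT of Bcl2. With centred libraries 5 were higher in Bcl2, and 2 were after quantile normalization, without the homopolymer genes or without library 9. The list summed to 342 TPM in library 2 and 269 TPM in library 4, to 136 to 225 TPM in the other BM libraries and to 276 to 612 TPM in PT. The part of such cells in the C1q levels was not tested.

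**Figure D5:**
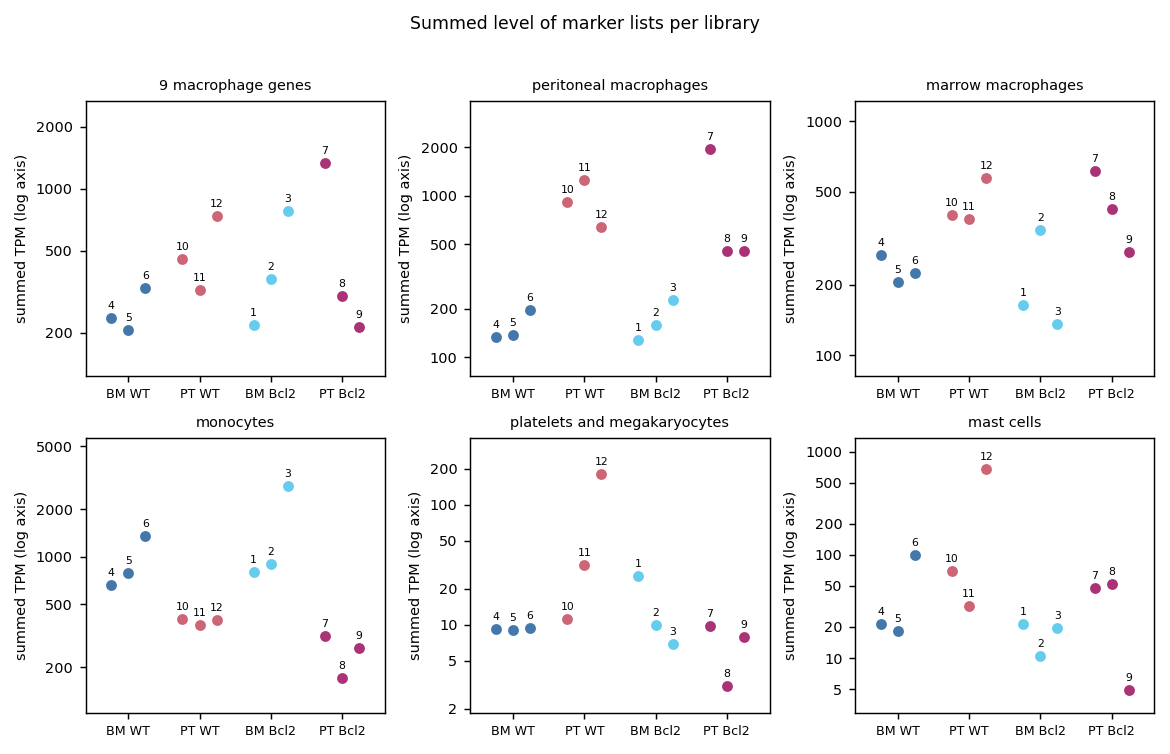
Summed TPM of the 9 macrophage genes and of 5 marker lists (y axes, log scale) in each library, by group, with library numbers. The sum of the peritoneal macrophage genes lies higher in all PT than in all BM libraries, library 3 is highest for monocyte genes, and library 12 is highest for platelet and mast cell genes.

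Lists of cells that are not macrophages differed in how many genes were called in PT against BM, beside the same shares of all tested genes. Of 7 tested dendritic cell genes, Itgax was higher in both genotypes, and of 7 mast cell genes Cma1 was higher in WT. Of 10 B cell genes 0 were called in WT and Ighm was higher in Bcl2, and the summed level of that list was 206 to 3118 TPM in BM and 1092 to 4625 TPM in PT. Of 6 tested erythroid genes 2 in WT and 4 in Bcl2 were lower, and of 5 tested eosinophil genes 1, Ear2, in WT and 2, with Ear1, in Bcl2. Of 4 tested T cell genes, 4 platelet genes and 2 mesothelial and stromal genes 0 were called. In Bcl2 with centred libraries, 5 B cell, 3 mast cell, 3 dendritic cell and 2 eosinophil genes were higher, and 1 erythroid and 1 eosinophil gene lower. Mertk, Cd163, Siglec1, Cd5l, Cx3cr1 and Ctss each stand on 2 lists.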

How the data were processed

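Total RNA of sorted cells was amplified as cDNA, and libraries made with the NEBNext Ultra kit were read as paired ends of 75 bases on an Illumina HiSeq. The authors ran AltAnalyze with its default settings and deposited gene levels as log2 values of TPM + 1, which were turned back to TPM here; they also deposited group means in TPM and a lineage score per group. The genome build and the read totals are not given in the sources used here. The columns carry no mouse or replicate numbers, and libraries were put in groups by the deposited marker table's column names, so p-values measure the spread between libraries of a group. Genes that reached 1 TPM in 3 or more of the 12 libraries were fitted with limma 3.58.1 in R 4.3.3 on log2(TPM + 1), with 1 mean per group and a trend in the prior spread, and p-values were adjusted by Benjamini-Hochberg over all 13456 tested genes; fold changes on this scale understate those of low genes. The fit was tested on simulated data with known changes. Steps among low values gave the worth of 1 read: with the best step, 71.2% to 78.8% of them lay within 0.15 reads of a whole number, where evenly spread values would give 30%. Coordinates come from GENCODE M21 and promoters from RefSeq. The 9 genes, the marker lists and the tests were chosen with earlier results of these data known. Genes named besides the 9 are C1qa, Lyz2, S100a8, S100a9, Bcl2, the 2 most similar genes for each of the 9 (1 of these is not reported here), and list genes that were called or, where none was, the 2 highest; others are said to be chosen after their values were seen. Another pseudocount, filters, scalings, thresholds, fits and leaving out each library were tried. The other settings for marker lists, S100a8 and S100a9, and the list sums without their leading genes, were added after seeing the data. A further table with 2 columns of values per sample that no label ties to a sample was not used, nor were columns of the authors' own comparisons, which hold fold changes and p-values.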

Additional observations from a re-analysis of the deposited data

Results flagged for a closer look

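The deposited lineage scores, which no comparison above uses, were higher for the macrophage reference in PT than in BM. They are z-scores of the authors for the likeness of each group's mean profile to 47 reference cell types and tissues, with no error. The macrophage reference had 4.504 in PT WT and 4.13 in PT Bcl2, in both the highest of the 47. In BM WT it had 0.112 and ranked 5, and in BM Bcl2 it had 0.000544 and ranked 9, with bone marrow as the highest reference in both. The PT scores were flagged because they lie above those of the marrow groups and were not analysed above. They were made from the mean profiles of these same libraries, so they are not separate data. The part of the 9 genes in them was not tested. Groups of 3 libraries are too small for the search for single outlying libraries.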

How the results depend on the processing

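No paired analysis was possible because the columns carry no replicate numbers. Of the 9 genes, 1 (Pf4) was called in WT at an unadjusted p, in a fit of only the 2 groups compared, and without homopolymer genes (chosen after seeing the data), and leaving out single libraries gave 0 to 1 (Pf4 without library 7, adjusted p 0.0390). In Bcl2 the count was 0 with no filter, at an adjusted p under 0.01 and in the fit of 2 groups, 1 after quantile normalization and with no trend, and 0 to 2 over the fits without 1 library, with 0 without library 1, 3 or 8. Pf4 in Bcl2 kept its call without libraries 2 and 9 only, with adjusted p 0.0504 to 0.182 in the other 10 such fits. Counts in the other 3 comparisons stayed at 0 in all settings run. The cause of these changes was not tested.

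Directions turned for genes that were not called, in log2(TPM + 1) of PT against BM. In WT, C1qb was 0.98 with a pseudocount of 0.1 and -1.30 to 1.14 without single libraries, Lyz1 was -0.34 to 2.67 without single libraries, and Fn1 was 0.24 without homopolymer genes. In Bcl2, Emr1 was 0.80 with centred libraries, 0.61 after quantile normalization and -1.33 to 0.004 without single libraries, and Lyz1 was 0.43 and 0.14 under the same scalings. C1qc was 1.31 and 0.79 under these scalings, 0.98 with a pseudocount of 0.1, 0.15 without homopolymer genes and -0.92 to 1.02 without single libraries. Without single libraries, Csf1r in Bcl2 was -0.37 to 0.90, C1qb -0.069 to 2.58 and Apoe -0.39 to 2.09. As a share of S100a8 and S100a9, the log2 ratio of PT to BM medians of the summed 9 genes was 4.89 in WT and 2.94 in Bcl2, against 0.94 and -0.28 in TPM. C1qb and C1qc rest on few reads, and each group has 3 libraries.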
